A study of Cricetulus griseus with 3 samples.

Results

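Poly-A RNA of isolated midbodies was compared with poly-A RNA of interphase microtubules over every transcript of the deposited table, in CHO cells, an established line from the ovary of the Chinese hamster, Cricetulus griseus. The comparison used 2 of the 3 sequenced samples, 1 library a side, and 13059 of 21607 transcripts, namely those at 1 RPKM (reads scaled by transcript length and by the library's total) or more in at least 1 of the 2 libraries. Midbodies came from cells held in 2 mM thymidine for 16 h, released for 5 h, held in 0.1 ug/ml nocodazole, which blocks microtubule assembly, for 4 to 5 h, collected in mitosis by shaking and left for 65 min in fresh medium before isolation. Interphase microtubules came from cells that had only the 16 h in 2 mM thymidine, which stops DNA synthesis, so both libraries share that block. The mitotic microtubule library, whose cells had the same steps as the midbody sample but 15 min of fresh medium, is quoted where its level bears on a gene. Structure, cell cycle stage, drug history and time in medium differ together between the 2 libraries and cannot be told apart. No whole-cell RNA is among the samples, so a transcript bound to a structure and one merely plentiful in the cell cannot be told apart, nor can fewer structures and less RNA in each.

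The midbody is the dense bundle of overlapping antiparallel microtubules that forms in the bridge between daughter cells. Centralspindlin, a complex of a kinesin and a GTPase-activating protein, builds it from the spindle midzone, and the ESCRT machinery cuts the bridge beside it. Vesicles delivered along the microtubules supply membrane for that last cut, and septins and actin hold the bridge in place. Interphase microtubules of a fibroblast-like cell carry vesicles and organelles and support the endoplasmic reticulum (ER) and Golgi.

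In these libraries many transcripts of immediate early transcription factors, growth factors and splicing kinases were higher in midbodies, as were some of mitotic motors. Many transcripts of the secretory pathway, G proteins, septins and cell surface proteins were lower. Of the compared transcripts, 1921 were at least 2-fold higher in midbodies (14.7%) and 2712 at least 2-fold lower (20.8%), on the log2 scale of RPKM + 1, which understates differences of low transcripts. At least 4-fold higher were 404 (3.09%) and at least 4-fold lower 544 (4.17%). The remaining 64.5% lay within 2-fold. The median log2 ratio was -0.15, with quartiles at -0.86 and 0.59. Each list median below stands against that value, and each list count against the shares of 14.7% higher and 20.8% lower. With 1 library a side no difference has a replicate check, so no p-value is given. Intervals in brackets are exact 95% binomial (Clopper-Pearson) intervals of the ratio of library-scaled reads (CPM) and cover counting error only.

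The higher transcripts held 23.2% of all midbody reads and 7.74% of interphase reads. The lower transcripts held 7.56% of midbody reads and 22.5% of interphase reads. The median level of the higher transcripts was 23.1 RPKM in midbodies, 23.9 in mitotic microtubules and 6.59 in interphase microtubules. That of the lower transcripts was 9.68 RPKM in midbodies, 10.1 in mitotic microtubules and 33.0 in interphase microtubules. The mitotic level lay within 2-fold of the midbody level for 92.6% of the higher and 96.8% of the lower transcripts, against 97.5% of those within 2-fold of interphase, so that closeness was general.

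The groups were of like transcript length and differed in level. The median length was 1671 bases for the higher and 1652.5 bases for the lower transcripts, against 1818 bases for those within 2-fold. Among the quintile of transcripts with the lowest levels, 24.0% were higher and 13.0% lower in midbodies. In the middle quintile 9.96% were higher and 26.1% lower, and in the quintile with the highest levels 17.6% were higher and 16.5% lower. Transcripts without a human protein match, 301 of those compared, were higher in 35.2% and lower in 13.95% of cases, with a median log2 ratio of 0.40.

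**Figure D1:**
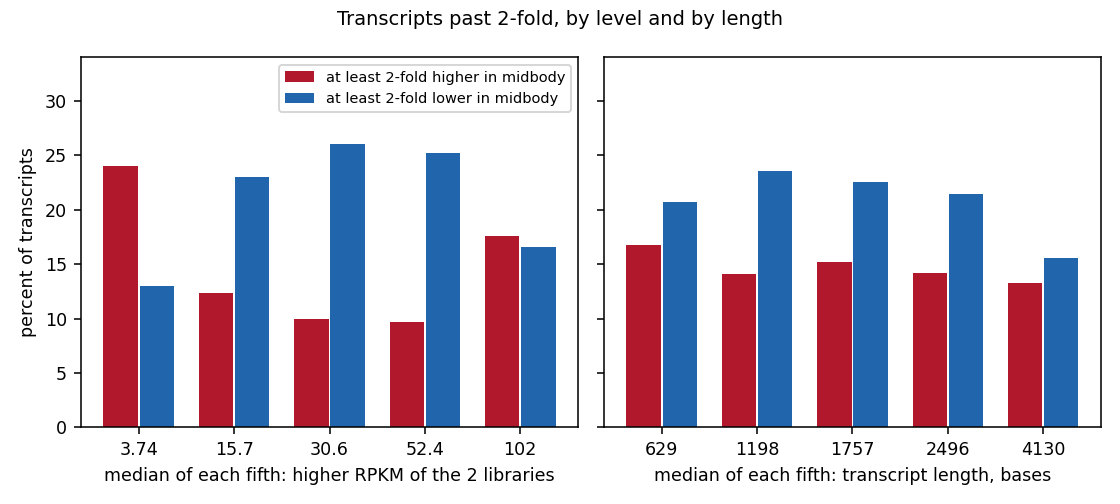
Percent of compared transcripts at least 2-fold higher (red) or at least 2-fold lower (blue) in midbodies than in interphase microtubules, in quintiles by the higher RPKM of the 2 libraries (left) and by transcript length in bases (right). Numbers under the bars are the median of each quintile, and the lowest quintile by level, with 24.0% higher and 13.0% lower, has the widest excess of higher transcripts.

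The midbody library was the shallower of the pair, with 5134865 assigned reads against 12672056 in the interphase library. It nevertheless had reads for more transcripts, 16528 against 15636. Thinned to the midbody total, the interphase library would be expected to show 14572. Reads in midbodies alone were seen for 1649 transcripts and reads in interphase alone for 757. These were nearly all of very few reads: 16 transcripts had at least 10 reads in midbodies and 0 in interphase, and 36 the opposite. As 10 reads mark a higher level in the shallower midbody library, the counts of 16 and 36 are not on an equal footing.

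Of the mesenchymal markers of a fibroblast-like line, Vim was abundant, Fn1 was present and lower in midbodies, and the others were at or near 0. Fn1, fibronectin, had 14.8 RPKM in midbodies and 34.7 RPKM in interphase, a log2 ratio of -1.17. Vim, the mesenchymal intermediate filament gene, had 239 RPKM in midbodies and 205 RPKM in interphase, and the 5 mesenchymal markers summed to 254 and 239 RPKM. Thy1 was at 0 in both, and the collagen genes Col1a1, with 3 reads in midbodies and 1 in interphase, and Col1a2, with 4 in each, were nearly absent. The 4 simple epithelial markers summed to 0.927 RPKM in midbodies and 0.976 RPKM in interphase, with Krt18 and Epcam at 0. The 5 leukocyte markers summed to 1.90 and 0.944 RPKM, with Ptprc and Cd3e at 0 in both, and the 3 endothelial markers to 0.205 and 0.881 RPKM, with Kdr at 0. The 4 neuronal markers summed to 5.797 and 4.49 RPKM, the 3 muscle markers to 13.5 and 4.83 RPKM, nearly all from Acta1, and the 2 erythroid markers to 0.151 and 0 RPKM. Of the ovarian follicle markers Fshr had 1 read in midbodies and 0 in interphase, Cyp19a1 had 0 in both, and Inha and Amh brought the 4 found in the table to 14.5 RPKM in midbodies and 4.31 RPKM in interphase. The part of these markers in the results below was not tested.

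**Figure D2:**
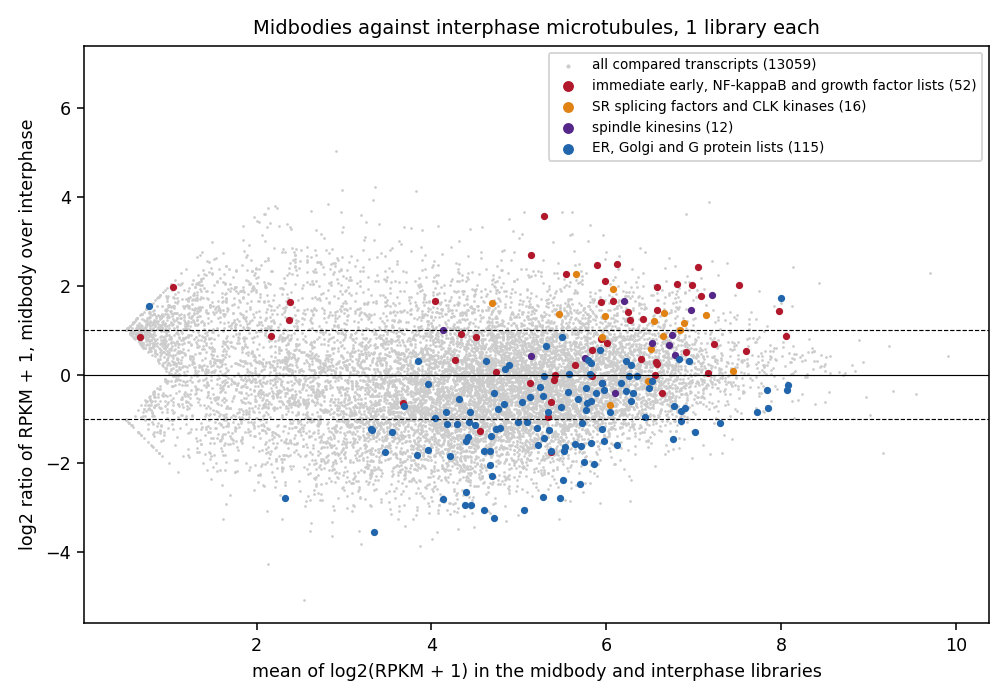
Log2 ratio of RPKM + 1, midbody over interphase, against the mean of log2(RPKM + 1) in both libraries for the 13059 compared transcripts (grey). Red, orange and purple points are members of the immediate early, NF-kappaB and growth factor lists (52), the SR splicing factors and CLK kinases (16) and the spindle kinesins (12), which lie mostly above 0. Blue points are the ER, Golgi and G protein lists (115), which lie mostly below 0. The red and blue groupings of lists were chosen with results of these data known. Dashed lines mark 2-fold.

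The highest ratio of all belonged to Omd, osteomodulin, a small leucine-rich proteoglycan of bone and tendon matrix. It had 273 reads in midbodies and 5 in interphase, 42.2 against 0.313 RPKM, a 135-fold difference (57.0 to 418). 3 genes beside it on the chromosome were also among the 25 highest. Ecm2, a matrix protein gene with leucine-rich repeats, had 155 midbody reads against 6 in interphase, Aspn, asporin, 80 against 3, and Ogn, osteoglycin, 71 against 2. In the RefSeq annotation of the hamster, Ecm2, Aspn, Omd and Ogn are 4 consecutive protein-coding genes on chromosome 3. In the mitotic library Ecm2 stood at 15.3 RPKM, Aspn at 15.04, Omd at 39.0 and Ogn at 11.2, so each was close to its midbody level. Bgn, biglycan, another leucine-rich proteoglycan, was at the opposite end, with 5.81 RPKM in midbodies and 72.5 RPKM in interphase, lower by a factor of 12.5 (9.15 to 17.5). Of the 10 small leucine-rich proteoglycans, 5 reached 1 RPKM in either library, Omd, Ogn and Aspn higher and Bgn and Dcn, decorin, lower past 2-fold. Their median of 3.55 was -0.19 without that floor, when Prelp and Fmod enter. Omd, Ogn and Aspn reached the floor in midbodies only, with 0.313, 0.141 and 0.211 RPKM in interphase. The 3 higher members and the median thus follow in part from the floor.

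Several other transcripts among the 25 highest ratios are from genes better known from specialised tissues, and the examples here had 25 reads or fewer in interphase. Stmn3, a stathmin-like microtubule destabiliser of neurons, had 90 reads in midbodies against 6 in interphase, or 32.3 against 0.872 RPKM. Cst6, a cystatin protease inhibitor of skin, had 89 against 9 reads, and Gpr22, an orphan receptor, 117 against 5 reads. Transcripts matching the human proteins P81277 (the prolactin-releasing peptide Prlh) and P23409 (the muscle factor Myf6) had 79 and 64 reads in midbodies, against 8 and 2 in interphase. The homeobox gene Hoxd4 had 39.7 RPKM in midbodies and 3.07 RPKM, from 25 reads, in interphase.

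Others at the top were abundant in midbodies. Arhgap25, a Rac GTPase-activating protein gene of blood cells, reached 419 RPKM in midbodies against 33.5 RPKM in interphase, from 5178 and 1022 reads, a 12.5-fold difference (11.7 to 13.4). The transcript matching O60879 (Diaph2, a formin that assembles actin) had 172 RPKM in midbodies and 12.7 RPKM in interphase. The one matching O60443 (Gsdme, a pore-forming gasdermin) had 118 RPKM in midbodies and 8.34 RPKM in interphase. All 3 were also high in mitotic microtubules, Arhgap25 at 400.1, Diaph2 at 134 and Gsdme at 94.6 RPKM. Atf3, a stress-induced AP-1 factor matched by P18847, differed from them: it had 134 RPKM in midbodies, 10.3 RPKM in interphase and 9.09 RPKM in mitotic microtubules. A transcript of no named protein, XM_003504032.1, chosen because it is among the 10 most abundant of the midbody library, had 557 RPKM in midbodies and 36.7 RPKM in interphase.

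**Figure D3:**
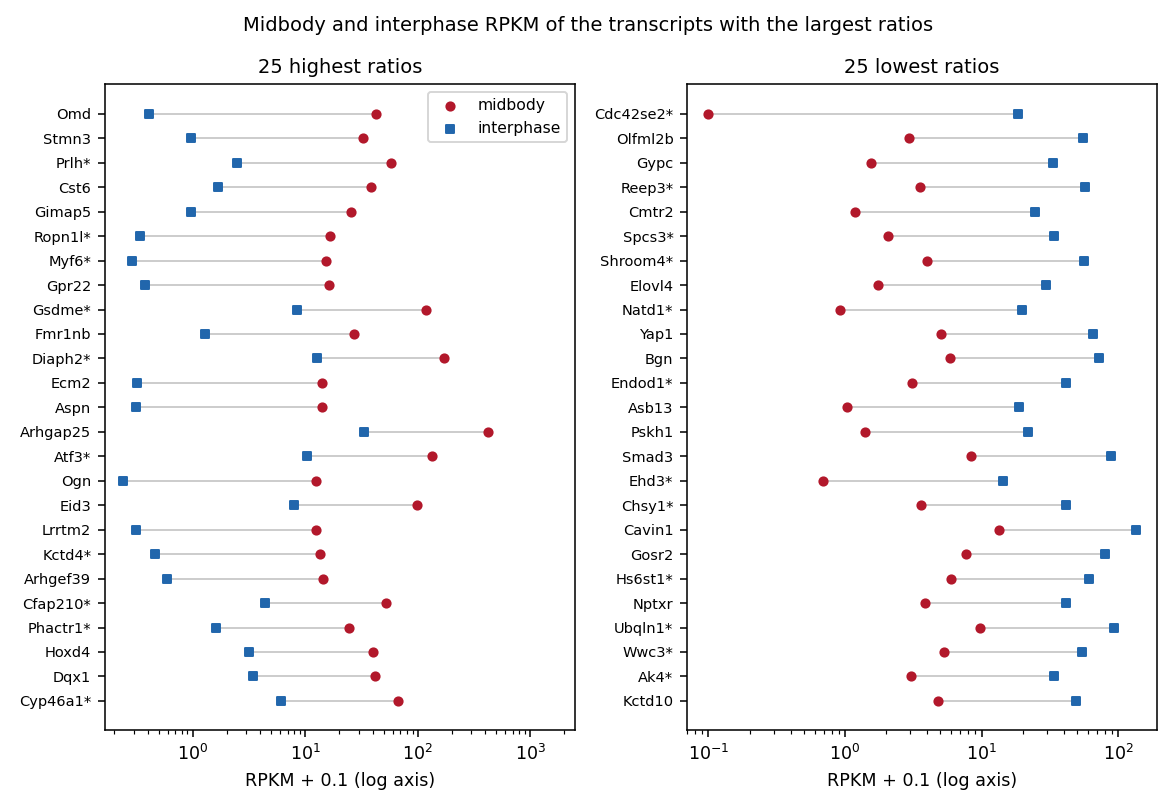
RPKM + 0.1 on a log axis in midbodies (red circles) and interphase microtubules (blue squares) for the 25 highest and 25 lowest log2 ratios among transcripts whose higher library had 10 RPKM and 50 reads, 1 transcript per human protein. An asterisk marks a name that rests on the human protein match alone. Omd leads the left panel with 42.2 against 0.313 RPKM, and in each row of either panel the 2 points are about 10-fold apart or more.

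The lowest ratios included signalling and membrane genes. Olfml2b, an olfactomedin-like matrix protein gene, had 33 reads in midbodies against 1565 in interphase, lower by a factor of 19.2 (13.6 to 28.0). Yap1, the transcriptional co-activator of the Hippo pathway, had 4.92 RPKM in midbodies and 65.3 RPKM in interphase, lower by a factor of 13.3 (9.34 to 19.5). Smad3, a TGF-beta signal transducer, had 8.21 RPKM in midbodies and 89.1 RPKM in interphase, and Cavin1, which shapes caveolae, 13.3 and 134 RPKM. These and the other low extremes also had low levels in the mitotic library, where Olfml2b, Yap1, Smad3 and Cavin1 stood at 3.52, 7.35, 4.15 and 8.12 RPKM.

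Other members of the 25 lowest, picked as examples after their values were seen, were Gypc, a glycophorin (1.44 RPKM in midbodies, 33.3 in interphase), Elovl4, a fatty acid elongase of the ER (8 and 354 reads), Gosr2, a Golgi SNARE (12 and 309 reads), and the transcripts matching P61009 (Spcs3, a signal peptidase subunit; 7 and 297 reads), O60243 (Hs6st1, a heparan sulfate sulfotransferase; 34 and 881 reads) and Q86X52 (Chsy1, a chondroitin synthase; 62 and 1832 reads). The transcript matching Q9NRR3 (Cdc42se2, a small Cdc42 effector) had 0 reads in midbodies and 59 in interphase. With up to 3 reads allowed by a count of 0, it was at least 7.97-fold lower. The lowest ratio of any single transcript, -5.08 on the log2 scale, belonged to the short XM_003508261.1, given here because of its value. It matches human protein Q8WW01 and had 0 reads in midbodies and 71 in interphase. It was not the transcript used for that protein, so it lies outside the sets of 25 and does not stand for the gene. At the edges of these sets of 25, the last high member was Cyp46a1 at a log2 ratio of 3.29, with the next gene at 3.27, and the last low member was Kctd10 at -3.13, with the next at -3.11.

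Genes of cytokinesis were mixed. Kif23, the motor subunit of centralspindlin, had 274 RPKM in midbodies, 79.0 RPKM in interphase and 109 RPKM in mitotic microtubules. Its partner Racgap1 had 107 RPKM in midbodies and 88.0 RPKM in interphase, a 1.22-fold difference (1.14 to 1.31). Ect2, the GTPase activator that centralspindlin recruits, had 36.2 RPKM in midbodies and 79.0 RPKM in interphase, lower by a factor of 2.18 (1.99 to 2.39). The 3 genes that act together at the cleavage site thus had ratios on both sides of 1.

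Of the other cytokinesis genes, Kif20b had 130.8 RPKM in midbodies and 40.5 RPKM in interphase, with some reads shared with other transcripts, and Cenpe, a kinetochore motor, 207 and 74.9 RPKM. Within 2-fold were Cep55, which brings ESCRT to the midbody, at a log2 ratio of 0.64, the microtubule bundler Prc1 at 0.54, Kif14 at 0.42, Kif4a at 0.37, Kif20a at -0.42, the citron kinase gene Cit at -0.46, the scaffold gene Anln at -0.78 and Rhoa, the GTPase of the contractile ring, at -0.95. In all 3 of 13 members were at least 2-fold higher, 1 was lower, and the list median was 0.37, or -0.00 over the 6 members whose names have a second source.

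Spindle kinesins leaned higher as a list: 4 of 12 were at least 2-fold higher and 0 lower, with a median log2 ratio of 0.70. Besides Kif23, Kif20b and Cenpe the higher ones included Kif18a, a motor that shortens kinetochore microtubules, at 1.01, or 0.82 with a pseudocount of 5. Kif22, a chromosome arm motor, had 145 RPKM in midbodies and 77.8 RPKM in interphase. Transport kinesins had 1 of 14 higher and 1 lower and a median of 0.23. Kif5b, the main kinesin-1 heavy chain, had 144 RPKM in midbodies and 97.2 RPKM in interphase, and Kif3b, of kinesin-2, 5.14 and 15.6 RPKM.

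Kinetochore and checkpoint genes had 4 of 21 higher and 2 lower, beside 14.7% and 20.8% of all transcripts. Their median of -0.03 turned above 0 under median of ratios and trimmed mean scaling. Cenpf, a large kinetochore protein of G2 and mitosis, had 236 RPKM in midbodies and 62.8 RPKM in interphase, a 3.76-fold difference (3.65 to 3.87). Cenpk had 81.3 RPKM in midbodies and 21.3 RPKM in interphase, and Cenpc 55.8 and 17.9 RPKM. Bub3, of the spindle checkpoint, was on the other side with 48.6 RPKM in midbodies and 107 RPKM in interphase.

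Of the chromosomal passenger complex and mitotic kinases, 1 of 13 was higher and 1 lower, with a median of 0.11. Wee1, the kinase that holds back Cdk1, had 79.2 RPKM in midbodies and 21.5 RPKM in interphase, and the centrosomal kinase Nek2 51.0 and 109.5 RPKM. Mitotic cyclins and anaphase regulators had 1 of 12 higher, Cdc25c at a log2 ratio of 1.47, 0 lower and a median of 0.05, or -0.25 over the 7 members whose names have a second source, with Ccnb1, cyclin B1, at -0.65.

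Among 11 tubulin genes past the floor, 1 was higher and 0 lower, with a median of 0.07. That median became -0.08 over Tubd1 and Tube1, the only members without shared reads. Tubb4b had 287 RPKM in midbodies and 112 RPKM in interphase, a log2 ratio of 1.34. The others ran from 0.29 for Tuba1c through 0.19 for Tubb6, 0.18 for Tubd1, 0.11 for Tubb, 0.07 for Tuba1b, 0.04 for Tuba1a, -0.17 for Tuba4a, -0.33 for Tube1 and -0.37 for Tubb4a to -0.58 for Tubg1, the gamma tubulin of nucleation sites. Reads were shared between transcripts for all of these but Tubd1 and Tube1, so single paralogs are uncertain. With that limit, the alpha tubulin genes Tuba1a, Tuba1b, Tuba1c and Tuba4a were all within 2-fold.

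Genes of microtubule-associated proteins and dynein had 2 of 22 higher and 6 lower, beside 14.7% and 20.8% of all transcripts. Their median was -0.50. Map1b, a microtubule stabiliser of neurons, had 181 RPKM in midbodies and 74.3 RPKM in interphase. Mapre2, a plus-end binding protein, had 5.14 RPKM in midbodies and 46.0 RPKM in interphase, lower by a factor of 8.94 (6.09 to 13.7). The dynein light intermediate chain gene Dync1li1 had 17.4 RPKM in midbodies and 53.4 RPKM in interphase.

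Septins, GTP-binding filaments of the bridge and the cell cortex, were among the lowest lists. Of 8 genes, 0 were at least 2-fold higher and 6 lower, with a median of -1.24. Septin2 had 61.8 RPKM in midbodies and 149 RPKM in interphase, Septin9 49.3 and 136 RPKM, and Septin8 5.31 and 36.3 RPKM, while Septin7 had a log2 ratio of 0.60. Genes of actin, myosin and the contractile ring had 1 of 24 higher and 6 lower, beside 14.7% and 20.8% of all transcripts. Their median was -0.44. Myh9, the non-muscle myosin heavy chain with partly shared reads, had 71.1 RPKM in midbodies and 172 RPKM in interphase. ESCRT and abscission genes had 1 of 18 higher, 2 lower and a median of -0.33, from Zfyve19, of the abscission checkpoint, at 1.46 to Chmp6 at -1.56.

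**Figure D4:**
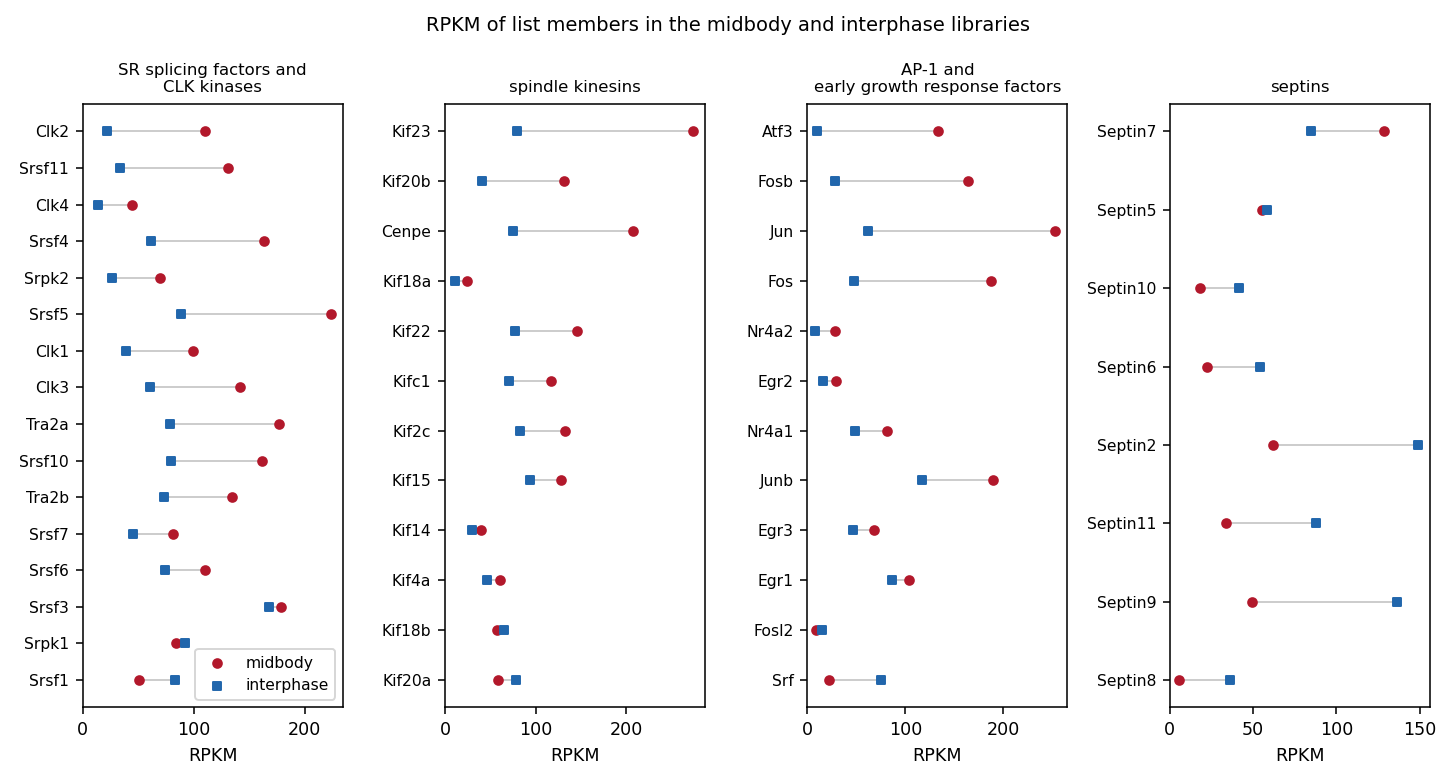
RPKM in midbodies (red circles) and interphase microtubules (blue squares) for the members of 4 gene lists at or over the floor, sorted by ratio within each list. Most SR and CLK genes and spindle kinesins have the midbody point to the right, led by Kif23 at 274 against 79.0 RPKM, and most septins have it to the left, as Septin2 at 61.8 against 149 RPKM.

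Immediate early genes are transcribed within minutes of a stimulus. Of the AP-1 and early growth response factors, 5 of 12 were at least 2-fold higher and 1 lower, with a median of 0.78. Fosb had 164 RPKM in midbodies and 28.4 RPKM in interphase, a 5.76-fold difference (5.00 to 6.66). Jun had 253 RPKM in midbodies and 62.1 RPKM in interphase. Srf, the factor that binds the serum response element of such genes, was lower by a factor of 3.466 (3.0005 to 4.02), with 21.6 RPKM in midbodies and 74.95 RPKM in interphase. Of the other immediate early genes, 7 of 13 were higher and 0 lower, with a median of 1.22. Btg2, an antiproliferative gene, had 226 RPKM in midbodies and 54.2 RPKM in interphase, and Ier3 412 and 153 RPKM.

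In the mitotic library several of these genes stood below interphase. That library differs from the midbody library in structure, stage and time in fresh medium together, which cannot be told apart. Fos, the partner of Jun, had 188 RPKM in midbodies, 47.3 RPKM in interphase and 18.3 RPKM in mitotic microtubules. Mitotic levels were 20.5 RPKM for Fosb, 37.3 for Btg2 and 26.98 for Klf4, a pluripotency and growth arrest factor with 123 RPKM in midbodies and 45.6 RPKM in interphase. Jun, at 83.7 RPKM, and Ier3, at 243 RPKM, were above interphase there.

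Growth factor ligands and NF-kappaB genes had medians above that of all transcripts. Of 9 EGF family and other ligands, 5 were at least 2-fold higher and 0 lower, with a median of 1.63. That median was 0.75 with a pseudocount of 5 and 0.80 over the members at 10 RPKM or more, so it depends on low transcripts. Areg, amphiregulin, had 249.9 RPKM in midbodies, 72.1 RPKM in interphase and 120 RPKM in mitotic microtubules. Csf2, the cytokine GM-CSF, had 138 RPKM in midbodies, 24.3 RPKM in interphase and 8.33 RPKM in mitotic microtubules. Of 18 genes of the NF-kappaB pathway and chemokines, 6 were higher and 1 lower, with a median of 0.86. Nfkbia, the inhibitor that NF-kappaB itself induces, had 369 RPKM in midbodies and 90.03 RPKM in interphase, and Nfkbiz, a nuclear relative, 89.02 and 12.9 RPKM, a 6.91-fold difference (6.09 to 7.85).

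Of 14 feedback inhibitors of MAP kinase signalling, 0 were at least 2-fold higher and 6 lower, with a median of -0.63. Dusp7, a phosphatase of ERK, had 5.72 RPKM in midbodies and 56.1 RPKM in interphase, lower by a factor of 9.80 (7.499 to 13.0). Spred2, which restrains Ras signalling, had 4.89 RPKM in midbodies and 27.1 RPKM in interphase. Over the 4 lists of immediate early factors, ligands and NF-kappaB genes together, 23 of 52 genes were higher and 2 lower, with a median of 0.86, a grouping chosen after the values were seen.

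Splicing regulators formed another high list. Of 16 SR splicing factors and the CLK and SRPK kinases that phosphorylate them, 10 were at least 2-fold higher and 0 lower, with a median of 1.18. Clk2 had 109.9 RPKM in midbodies and 21.98 RPKM in interphase, with partly shared reads, and Clk4 44.4 and 13.8 RPKM, a 3.22-fold difference (2.78 to 3.74). Srsf11 had 130.98 RPKM in midbodies and 33.5 RPKM in interphase, and Srsf4 163 and 61.8 RPKM. Mitotic levels were again like those of midbodies, with 135 RPKM for Clk2, 54.0 for Clk4, 120 for Srsf11 and 157 for Srsf4. Srsf1, the founding SR protein gene, had a log2 ratio of -0.69.

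Each secretory pathway list had a median below that of all transcripts. Of 19 genes of the signal recognition particle and translocon, which bring nascent proteins into the ER, 1 was at least 2-fold higher and 8 lower, with a median of -0.59, though the 8 members whose names have a second source had a median of -0.08. Sec61a1, the channel subunit, had 19.1 RPKM in midbodies and 102 RPKM in interphase, lower by a factor of 5.37 (4.71 to 6.16). Srp14 had 25.3 RPKM in midbodies and 79.7 RPKM in interphase. Of 20 ER chaperones and unfolded protein response genes, 0 were higher and 7 lower, with a median of -0.83, and Atf6, a membrane-bound stress sensor, had 22.9 RPKM in midbodies and 63.3 RPKM in interphase.

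Traffic between ER and Golgi was the longest of the secretory lists. Of 35 genes, 1 was at least 2-fold higher and 18 lower, with a median of -1.11, or -0.87 with a pseudocount of 5. Arcn1, a subunit of the COPI coat, had 512 reads in midbodies and 5278 in interphase, or 27.8 and 116 RPKM. Surf4, a cargo receptor, had 21.1 RPKM in midbodies and 120 RPKM in interphase, lower by a factor of 5.71 (4.62 to 7.14), and Kdelr1, which returns ER residents, 7.41 and 51.7 RPKM. The exception was Tmed9, a p24 cargo receptor named here after its value was seen, with 462 RPKM in midbodies and 139.98 RPKM in interphase and partly shared reads.

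Of 26 N-glycan and Golgi glycosylation enzymes, 0 were higher and 13 lower, with a median of -0.998. Mgat2, which starts the second antenna of complex N-glycans, had 10.8 RPKM in midbodies and 56.2 RPKM in interphase, and Stt3b, a catalytic subunit of oligosaccharyltransferase, 21.6 and 73.9 RPKM. Of 22 lysosomal membrane proteins and hydrolases, 0 were higher and 8 lower, with a median of -0.74. Psap, the sphingolipid activator precursor, had 56.7 RPKM in midbodies and 188 RPKM in interphase, and Glb1, beta-galactosidase, 12.4 and 59.9 RPKM.

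Lists of the plasma membrane and its signalling had medians below that of all transcripts. Heterotrimeric G protein subunits had the lowest median of the lists with 8 or more members, -1.29, with 0 of 15 higher and 9 lower. Gna12 had 16.0 RPKM in midbodies and 115 RPKM in interphase, lower by a factor of 7.18 (6.34 to 8.16). Of 17 integrins and their partners 1 was higher and 8 lower, with a median of -0.88. Itgb5 had 22.3 RPKM in midbodies and 81.2 RPKM in interphase, and Cav1, the coat protein of caveolae, 10.8 and 73.9 RPKM. Cd9, a tetraspanin of the cell surface, was the higher one, with 43.9 RPKM in midbodies and 5.798 RPKM in interphase.

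Extracellular matrix genes had 1 of 17 higher, 6 lower and a median of -0.70. Nid1, a basement membrane linker, had 250 reads in midbodies and 4797 in interphase, lower by a factor of 7.78 (6.85 to 8.87). Of 10 genes of the YAP and TEAD list, 1 was higher and 3 lower, beside 14.7% and 20.8% of all transcripts, with a median of -0.52. Lats2, the kinase upstream of Yap1, had 6.56 RPKM in midbodies and 48.6 RPKM in interphase. Of 17 amino acid and metabolite transporters 3 were higher and 6 lower, with a median of -0.55, and Slc16a1, a lactate transporter, had 26.1 RPKM in midbodies and 124 RPKM in interphase.

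**Figure D5:**
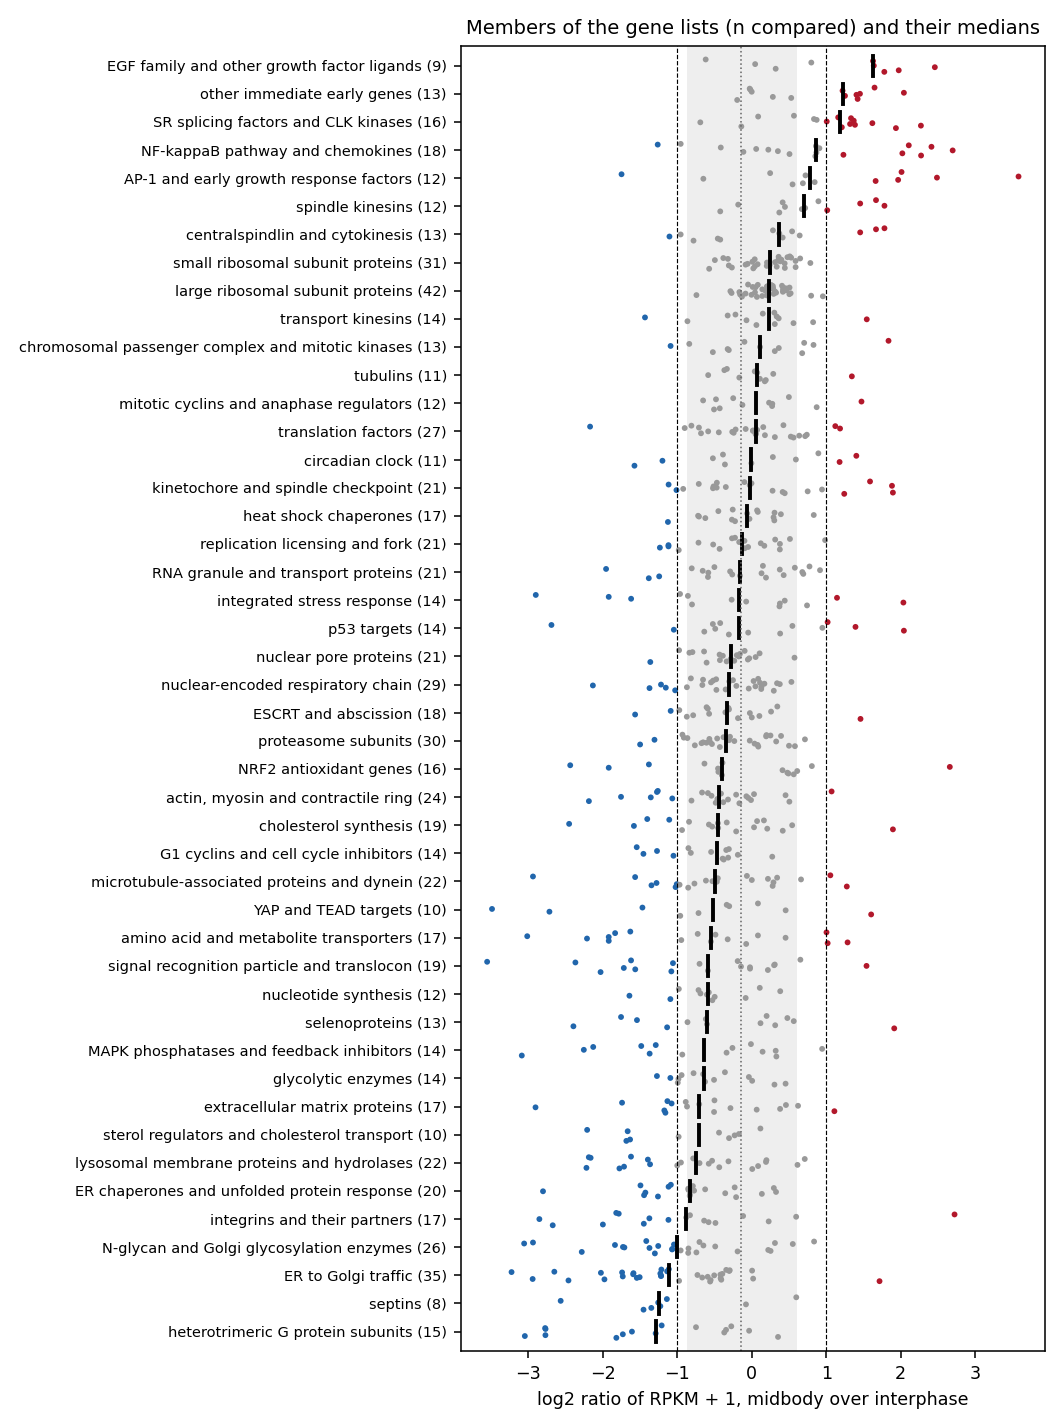
Log2 ratio of RPKM + 1, midbody over interphase, of each compared member of the lists with at least 8 such members, sorted by the list median (black bar). Red and blue points are at least 2-fold higher and lower, grey points lie within 2-fold, and the grey band and dotted line give the quartiles and the median of all compared transcripts. Ligands, immediate early genes and splicing factors are at the top, and G proteins, with a median of -1.29, at the bottom.

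Genes of G1 and S phase were at least 2-fold lower in shares on either side of the 20.8% of all transcripts. Of 14 G1 cyclins and cell cycle inhibitors, 0 were at least 2-fold higher and 4 lower, with a median of -0.47. Ccnd1, cyclin D1, had 27.9 RPKM in midbodies and 83.1 RPKM in interphase, and Cdk2, the S phase kinase, 32.4 and 90.4 RPKM. Of 21 replication licensing and fork genes 0 were higher and 3 lower, with a median of -0.13 and Mcm6, of the replicative helicase, at -1.23. Of 12 nucleotide synthesis genes 0 were higher and 2 lower, with a median of -0.59.

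Cholesterol synthesis had 1 of 19 higher and 4 lower, a share near that of all transcripts, with a median of -0.45. The sterol regulators and transport genes had 0 of 10 higher and 4 lower, with a median of -0.71 and Abca1, a cholesterol exporter, at -1.68. The integrated stress response list had 2 of 14 higher and 3 lower, beside 14.7% and 20.8% of all transcripts. Its median of -0.17 was 0.59 over the 6 members whose names have a second source. Ddit3, the stress factor CHOP, had 132 RPKM in midbodies and 31.5 RPKM in interphase with partly shared reads, and Psat1, of serine synthesis, 8.67 and 71.1 RPKM, also partly shared.

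Lists of p53 targets, clock, NRF2 and selenoprotein genes had members past 2-fold on both sides. So did all transcripts, with 14.7% higher and 20.8% lower. The p53 targets had 3 of 14 higher, 2 lower and a median of -0.18, from Btg2 at 2.04 to Zmat3, an RNA-binding zinc finger gene, at -2.69. Circadian clock genes had 2 of 11 higher and 2 lower, with a median of -0.00 that changed sign with the scaling. NRF2 antioxidant genes had 1 of 16 higher, 3 lower and a median of -0.40, with Srxn1, sulfiredoxin, at -2.44. Selenoprotein genes had 1 of 13 higher and 4 lower, with a median of -0.60. Txnrd2, the mitochondrial thioredoxin reductase, had 65.4 RPKM in midbodies and 16.6 RPKM in interphase.

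The machinery of translation was nearly level. Of 31 small and 42 large ribosomal subunit genes, 0 were past 2-fold in either direction, with medians of 0.24 and 0.23. Rps21 had 625 RPKM in midbodies and 362 RPKM in interphase, and Rplp0 162 and 271 RPKM, both with partly shared reads. Translation factors had 2 of 27 higher, 1 lower and a median of 0.05. The lower one was Eif2s3, the gamma subunit of eIF2, with 25.4 RPKM in midbodies and 118 RPKM in interphase. RNA granule and transport genes had 0 of 21 higher and 3 lower, with a median of -0.16, or 0.15 over the 13 members whose names have a second source. They included Elavl1, the AU-rich element binder HuR, with 21.96 RPKM in midbodies and 88.0 RPKM in interphase, and G3bp1, of stress granules, with 39.6 and 105 RPKM.

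Other housekeeping lists were close to the centre or moderately lower. Proteasome subunits had 0 of 30 higher and 2 lower, with a median of -0.34. Nuclear-encoded respiratory chain genes had 0 of 29 higher, 5 lower and a median of -0.30, and Sdhd, of complex II, had 34.1 RPKM in midbodies and 153 RPKM in interphase. Glycolytic enzymes had 0 of 14 higher, 2 lower and a median of -0.64. Heat shock chaperones had 0 of 17 higher, 1 lower and a median of -0.06, and nuclear pore genes 0 of 21, 1 and -0.28. Histone variants had 0 of 6 higher, 1 lower and a median of 0.28. The median of -0.40 over those without shared reads rests on Cenpa (0.75) and H1f0 (-1.55) alone, the ends of the list. The 1 lower histone variant was H1f0, a linker histone of resting cells, with 22.3 RPKM in midbodies and 67.4 RPKM in interphase.

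The most abundant transcript of the midbody library was Csr1, as RefSeq names it, with 1841 RPKM in midbodies and 375 RPKM in interphase, and that of the interphase library was Actb, beta-actin, with 312 RPKM in midbodies and 1054 RPKM in interphase, both with partly shared reads. Several others led both libraries. S100a6, a calcium-binding protein gene, had 749.7 RPKM in midbodies and 479 RPKM in interphase, Lgals1, galectin 1, 538 and 445 RPKM, and Fth1, the ferritin heavy chain, 637 and 869 RPKM. Among the 10 leading midbody transcripts, Csr1 and 2 others with partly shared reads were over 4-fold lower in interphase. The others were Bcap29, of the ER membrane, with 704 against 169 RPKM, and Hsdl2, a peroxisomal dehydrogenase-like gene, with 649 against 121 RPKM. So was XM_003504032.1, given above, with 557 against 36.7 RPKM and no shared reads.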

How the data were processed

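Libraries came from poly-A RNA with the Illumina TruSeq kit, per the labels' protocols. The aligner, counter, build and use of strand were not stated in the labels or headers. The table, as deposited, gives, per the file headers, estimated counts of reads per RefSeq transcript (fractional for 15.7% of transcripts in midbodies and 14.7% in interphase, as when reads are divided), the authors' RPKM, and the best human protein by BLASTX with an E-value, a deposited p-value-like score of at most 1e-20. Groups follow the sample titles. Columns named Metaphase were assigned to the library titled Mitosis.

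Ratios were log2((RPKM + 1)/(RPKM + 1)) over transcripts at 1 RPKM or more in either library. Folds are ratios of CPM with exact 95% intervals, and a count of 0 allows 3 reads (0.584 CPM in midbodies, 0.237 CPM in interphase). Python 3.11.15 with numpy 2.4.6, pandas 2.3.3, scipy 1.17.1 and matplotlib 3.10.9 was used, and the measure was tested on simulated data.

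The table pairs transcripts with accessions of human proteins but holds no gene names for them. Names of 1048 such proteins were supplied from general knowledge of the accessions, for the extreme transcripts after their ratios had been seen, and are not taken from a deposited or reference file. Where a transcript also has a symbol in RefSeq (assembly CriGri-PICRH-1.0), 116 of 117 names agreed. A further 483 names had a gene of that name within 5 Mb of the gene of a transcript whose accession number lies within 40. The other 450 names rest on the protein match alone, which a paralog can share. Outside the extremes such names carry no mark in the text, nor does Cyp46a1. Among them are Cenpf, Cenpk, Cenpc, Bub3, Kif20b, Kif18a, Srsf11, Elavl1, Eif2s3 and Sdhd. Where a protein had several transcripts, that with most reads was used.

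Genes named were the 25 highest and 25 lowest ratios whose higher library had 10 RPKM and 50 reads, the 10 most abundant transcripts per library, up to 5 members per list with the largest ratios at 50 reads, the tubulin and cytokinesis lists, Kif23, and transcripts with under 3 reads in the lower library. Members and gene lists were chosen with earlier results of these data known. Of 49 lists, the replication-dependent histones had no named member.

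Alternatives were pseudocounts of 0.1 and 5, no filter and a 10 RPKM filter, scaling by trimmed mean of M values (30% of ratios and 5% of abundances trimmed) or by median of ratios, CPM for RPKM, sums per human protein, and transcripts with whole reads only.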

Additional observations from a re-analysis of the deposited data

How the results depend on the processing

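No paired analysis was possible because each group had 1 library, and for the same reason no library could be left out. The count at least 2-fold higher, 1921, became 1091 with a pseudocount of 5 and 1278 with the 10 RPKM filter, which tests fewer transcripts. The counts at least 4-fold higher and lower, 404 and 544, became 112 and 173 with a pseudocount of 5, and the higher count became 895 with a pseudocount of 0.1, against 815 lower. The median log2 ratio of all transcripts, -0.15, was -0.16 with a pseudocount of 0.1, -0.11 with 5, 0.0195 without the filter, -0.23 with the 10 RPKM filter, -0.10 with median of ratios scaling, -0.11 with trimmed mean scaling, -0.14 in CPM, -0.17 summed per human protein and -0.20 with whole reads only. The cause of these moves was not tested. Both scalings moved single ratios by 0.05.

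The median of the small leucine-rich proteoglycans, 3.55, was -0.19 without the filter, which adds Prelp and Fmod. No ratio of a named gene past 2-fold changed sign, and 282 of 313 kept their side of 2-fold under each alternative that gave them a value. The 10 RPKM filter gave a value for 296 of them and whole reads only for 251. Histone variants had a median of -0.40 with whole reads only, from Cenpa and H1f0 alone. Of 48 list medians 34 kept their sign, their side of 2-fold and their size within 1.5 times. With members whose names have a second source, an alternative chosen after the data were seen, the medians became -0.00 for cytokinesis, -0.25 for mitotic cyclins, -1.37 for MAP kinase inhibitors, 0.59 for the integrated stress response and 0.15 for RNA granule genes. Depth limits the low transcripts most: 3 midbody reads are 0.584 CPM.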
